A study of Mus musculus with 6 samples.

Results

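The genes described here encode enzymes that modify and crosslink collagen: the prolyl 4-hydroxylase subunits P4ha1, P4ha2, P4ha3 and P4hb, the lysyl hydroxylases Plod1, Plod2 and Plod3, and the lysyl oxidases Lox and Loxl2. These 9 genes were chosen by name, with no cutoff on their values, from the 35968 genes with a transcript in the 6 RNA-seq libraries. The choice was made with earlier results of these data known. MS-5, a mouse bone marrow stromal cell line, was cultured alone (MS-5 only, libraries MO1, MO2 and MO3) or for 24 hr in direct contact with SKM-1, a human acute myeloid leukaemia (AML) cell line (co-culture, libraries MC1, MC2 and MC3). Both groups are the same unmodified stromal line in the same medium, and after co-culture the attached leukaemic cells were washed and mildly trypsinised away before stromal RNA was taken. The comparison asks how the stromal transcriptome differs after contact with AML cells. Each result is therefore from 1 stromal line and 1 AML line, and no source says that the 3 libraries of a group are separate experiments, so that the p-values measure only the spread between these libraries.

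Collagen chains are made in the endoplasmic reticulum, where prolyl 4-hydroxylase converts prolines to 4-hydroxyproline, which the triple helix needs to be stable at body temperature. The enzyme is a tetramer of catalytic alpha subunits, encoded by P4ha1, P4ha2 or P4ha3, and beta subunits, which are protein disulphide isomerase, encoded by P4hb. Lysyl hydroxylases (the Plod genes) hydroxylate lysines, and Plod2 acts on the lysines of the telopeptides, the short ends outside the helix. Both kinds of hydroxylase use oxygen, iron, 2-oxoglutarate and ascorbate. Once collagen is secreted, the copper enzymes of the lysyl oxidase family oxidise lysines and hydroxylysines to aldehydes, from which the crosslinks of the fibrils form. Several of these genes, P4ha1 and Plod2 among them, are known targets of hypoxia-inducible factor. Stromal cells of the bone marrow are a main source of its collagen.

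In co-culture, 3 of the 9 genes rose: P4ha1, Plod1 and Plod2, by between 1.66-fold and 2.51-fold. No member fell. In bulk RNA such as this, fewer cells of a type and less RNA per cell cannot be told apart. P4ha2 had a fold change like that of Plod2 and did not pass the test, and P4hb, P4ha3, Plod3, Lox and Loxl2 did not pass it either. Levels are given as CPM (estimated counts scaled to a common library size by TMM) and, where genes are set against each other, as TPM, which corrects for transcript length. A gene was called when its p-value from edgeR's quasi-likelihood test, adjusted by Benjamini-Hochberg over the 13221 genes tested, was under 0.1. By this rule 4.38% of all genes tested were called, and 3.71% were called higher in co-culture, against 3 of the 9 members. The median log2 fold change of the members was 0.66, and that of all genes tested was -0.02.

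The sequences of the alternative exons of P4ha1, P4ha2 and Plod2 are printed because transcripts of these genes differ in them, so that the deposited values of single transcripts can tell the forms apart. P4ha1 (chr10:59323296-59373304, plus strand; all coordinates are GENCODE M21 on GRCm38) has a pair of mutually exclusive coding exons of 71 bases in the ninth place of 15, at chr10:59354340-59354410 (upstream) and chr10:59355350-59355420 (downstream). Capitals mark the bases at which the pair differ. The pair are identical at 42 of 71 positions (59.2%).
P4ha1 upstream exon: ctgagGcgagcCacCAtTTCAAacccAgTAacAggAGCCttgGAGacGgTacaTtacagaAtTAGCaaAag
P4ha1 downstream exon: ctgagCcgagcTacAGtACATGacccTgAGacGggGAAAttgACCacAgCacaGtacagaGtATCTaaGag
P4ha2 (chr11:54100095-54131665, plus strand) has the same arrangement, with an upstream exon of 60 bases at chr11:54126238-54126297 and a downstream exon of 66 bases at chr11:54126346-54126411, in place 13 of 16. When they are aligned, 37 of 67 columns are identical (55.2%), and capitals mark the bases of the other columns.
P4ha2 upstream exon: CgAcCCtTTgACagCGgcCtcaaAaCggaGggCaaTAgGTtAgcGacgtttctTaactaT
P4ha2 downstream exon: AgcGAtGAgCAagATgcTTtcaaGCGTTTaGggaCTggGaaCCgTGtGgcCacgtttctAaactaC
Plod2 (chr9:92542223-92608428, plus strand) has a coding exon of 63 bases, number 14 of 20, at chr9:92601985-92602047, which the longer splice form holds and the shorter skips. It is printed in capitals between the 15 bases of the transcript on either side of it.
Plod2 alternative exon: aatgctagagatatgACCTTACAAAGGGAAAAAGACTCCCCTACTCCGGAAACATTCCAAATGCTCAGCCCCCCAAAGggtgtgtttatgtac

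The 250 bases before the start that RefSeq gives a gene are printed for 3 of the members with a larger change, because hypoxia-inducible genes rose in the same libraries, as described at the end. The letters searched were ACGTG and GCGTG, the core of the sequence that hypoxia-inducible factor binds, on both strands. CACGTG reads as a match on each strand and would count as 2. The RefSeq table (GRCm38.p6) holds 6 of the 9 members. Capitals mark the matches, of which P4ha1 has 3 (chr10:59323046-59323295, plus strand), P4ha2 has 3 (chr11:54100674-54100923, plus strand) and Plod1 has 1 (chr4:147936777-147937026, minus strand). For P4ha1 the RefSeq start is the GENCODE start. For P4ha2 it lies 829 bases inside the gene as GENCODE draws it, so that this window is within the GENCODE gene, and for Plod1 it lies 9 bases before the GENCODE start.
P4ha1 promoter: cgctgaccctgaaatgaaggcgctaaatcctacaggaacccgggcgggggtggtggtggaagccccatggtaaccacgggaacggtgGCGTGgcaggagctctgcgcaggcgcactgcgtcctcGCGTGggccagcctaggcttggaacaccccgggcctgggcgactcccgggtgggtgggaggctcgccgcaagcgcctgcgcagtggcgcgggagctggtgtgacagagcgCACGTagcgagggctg
P4ha2 promoter: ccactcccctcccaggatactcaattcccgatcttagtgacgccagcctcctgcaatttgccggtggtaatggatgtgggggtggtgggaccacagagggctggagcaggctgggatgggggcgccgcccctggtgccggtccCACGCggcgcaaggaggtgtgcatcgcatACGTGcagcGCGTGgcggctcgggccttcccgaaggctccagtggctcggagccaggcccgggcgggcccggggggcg
Plod1 promoter: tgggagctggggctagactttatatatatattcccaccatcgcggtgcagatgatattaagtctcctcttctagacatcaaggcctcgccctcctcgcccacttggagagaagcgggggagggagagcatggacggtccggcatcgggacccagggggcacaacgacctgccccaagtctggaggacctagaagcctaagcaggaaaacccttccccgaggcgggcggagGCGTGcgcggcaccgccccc
Of the other members with an entry, Plod3 has 4 matches, P4hb has 2 and P4ha3 has 0. Plod3 did not pass the test and has the most matches of the 6. Among the 32851 promoters of this length in the table, 38.6% hold at least 1 match and 16.7% hold 2 or more, so that the letters are common, and a match is a description of the window only. Plod2, Lox and Loxl2 have no entry.

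Libraries MO2 and MC3 stood apart from the other 4, and the labels name no batch that holds them. The number of transcripts with a count was 65170 in MO2 and 66456 in MC3, and lay between 51533 and 57350 elsewhere. Mitochondrial transcripts took 6.03% and 5.89% of their estimated counts, against 10.5% to 13.1%, and retained-intron transcripts took 5.25% and 5.38% of their TPM, against 2.47% to 2.74%. The depth of the libraries was 23978881 to 27182453 estimated counts for MS-5 only and 26258451 to 35694987 for co-culture. The defining stromal markers were present in all 6 libraries, with summed TPM of the 10 listed markers between 6644 and 7896 and 0 of 10 past the test by edgeR (1 of 10 at an unadjusted p under 0.05). Of these, Thy1 was low, at 0.40 to 4.25 CPM. Some markers of leukocytes were higher in co-culture. Of 12 listed, 9 were tested and 5 passed (Ptprc, Spi1, Laptm5, Coro1a and Csf1r), while Mpo (log2 fold change 4.74, edgeR adjusted p = 0.121), Itgb2 (0.60), Cd53 (-0.11) and Cd74 (-0.21) did not. The 12 summed to between 15.2 and 44.8 TPM in MS-5 only and to 81.8, 401 and 118 TPM in MC1, MC2 and MC3, and none of the 12 was at 0 in all libraries. Cd34 and Itgam had 0 counts in MO1, and Cd33 in MO3. The 6 markers of endothelial and epithelial cells summed to 0.697, 1.09 and 0.711 TPM in MO1, MO2 and MO3 and to 2.23, 8.002 and 2.15 TPM in MC1, MC2 and MC3, without overlap and with the highest sum in MC2, as for the leukocyte markers. Of these, 2 were tested and 0 passed by edgeR (1 at an unadjusted p under 0.05, Pecam1, with a log2 fold change of 2.19 and an adjusted p of 0.219), and Epcam had 0, 0 and 1 counts in MS-5 only, against 11, 68 and 13 in co-culture. Cdh1 had 0 counts in all libraries but MC2. The part of other cells in the members' values was not tested. The reads were counted on mouse transcripts only, so a human read is counted where it resembles a mouse transcript.

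**Figure D1:**
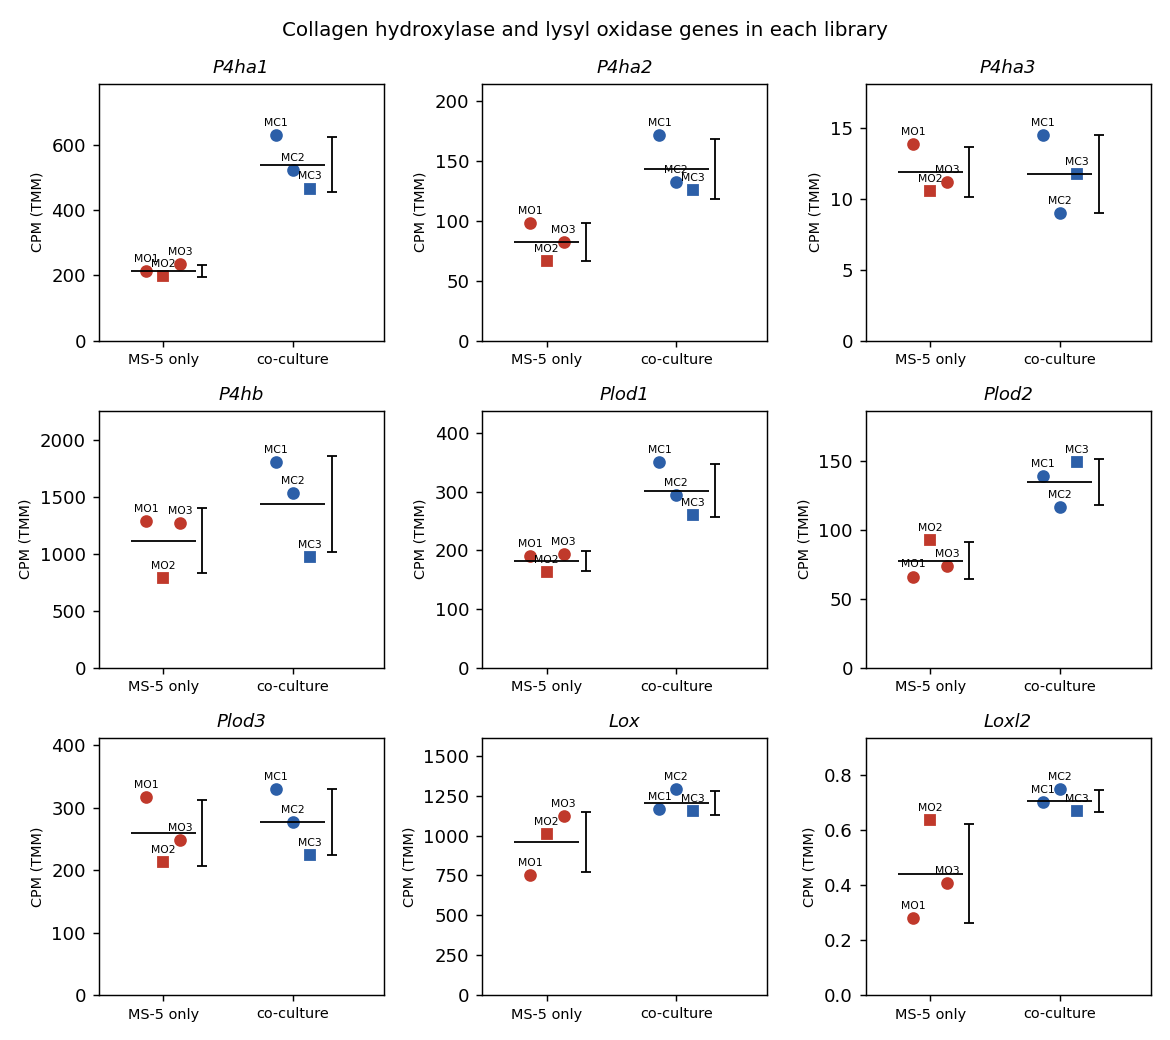
CPM (TMM-normalised) of the 9 genes in each library on linear axes that start at 0, with MS-5 only in red, co-culture in blue, the mean as a horizontal line and the SD (n = 3) as a bar. Squares mark MO2 and MC3. P4ha1, P4ha2, Plod1 and Plod2 are higher in each co-culture library than in each MS-5 only library, as are Lox and Loxl2 by smaller margins.

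P4ha1 encodes the main catalytic alpha subunit of prolyl 4-hydroxylase in most cells. Its CPM was 212, 197 and 234 in MO1, MO2 and MO3, and 629, 521 and 465 in MC1, MC2 and MC3. The groups did not overlap: the lowest co-culture library, MC3, was well above the highest MS-5 only library, MO3. The mean rose from 214 ± 18.6 to 539 ± 83.3 CPM (SD, n = 3 each), a log2 fold change of 1.33 (SE 0.18, 95% interval 0.89 to 1.77, adjusted p = 0.0734 by edgeR's quasi-likelihood test). In TPM, P4ha1 was 78.6, 111 and 84.3 in MS-5 only, against 233, 183 and 270 in co-culture, again without overlap. It was the member with the largest fold change. It passed the test when any 1 co-culture library was left out, with log2 fold changes of 1.19 to 1.42 over the 6 fits that leave out 1 library. When MO1, MO2 or MO3 was left out, no gene at all passed by edgeR, and 4 members had an unadjusted p under 0.05, as did 10.5%, 20.8% and 11.2% of all genes tested.

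P4ha2 encodes another alpha subunit, known from chondrocytes and endothelial cells. Its CPM was 98.0, 66.7 and 82.4 in MS-5 only, against 172, 133 and 126 in MC1, MC2 and MC3. All co-culture libraries were above all MS-5 only libraries, and MC1 was the highest. The log2 fold change was 0.80 (SE 0.20, 95% interval 0.32 to 1.28), with an unadjusted p of 0.00578 and an edgeR adjusted p of 0.114, which did not pass. Retained-intron transcripts took 17.6% of the P4ha2 TPM in MO2 and 17.4% in MC3, against 1.22% to 3.37% in the other libraries. At an unadjusted p under 0.05, 4 members were higher (P4ha1, P4ha2, Plod1 and Plod2), against 8.62% of all genes tested. P4ha3 (chr7:100285520-100319699, plus strand), a further alpha subunit gene, was low in MS-5 cells, at 13.9, 10.6 and 11.2 CPM in MS-5 only, against 14.5, 8.97 and 11.7 in co-culture. The groups overlapped throughout, with MC1 the highest and MC2 the lowest of the 6 libraries. Its log2 fold change was -0.02 (SE 0.22, 95% interval -0.56 to 0.52, edgeR adjusted p = 0.993).

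P4hb (chr11:120560298-120573253, minus strand) encodes the beta subunit, which is protein disulphide isomerase and also acts outside this enzyme. Its CPM was 1294, 788 and 1274 in MO1, MO2 and MO3 and 1808, 1539 and 977 in MC1, MC2 and MC3. The groups overlapped, and MO2 and MC3, the libraries that stood apart, were the lowest of their groups. The log2 fold change was 0.37 (SE 0.33, 95% interval -0.43 to 1.16, edgeR adjusted p = 0.737). It ran from 0.16 without MC1 or without MO2 to 0.58 without MC3, and passed in none of the 6 fits that leave out 1 library. In TPM the groups did not overlap, at 526, 493 and 500 in MS-5 only, against 772, 672 and 660 in co-culture, so that whether the groups overlap depends on the scale. P4hb was the most abundant member per length in all 6 libraries.

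The make-up of the alpha subunits differed between the groups, as a description of the TPM values. P4ha1 took 55.4%, 60.9% and 63.2% of the summed TPM of the 3 alpha genes in MS-5 only, against 68.8%, 70.8% and 67.5% in co-culture. These shares did not overlap, with means of 59.8% ± 3.99 and 69.0% ± 1.66 (SD, n = 3 each). The share of P4ha2 was 35.0% ± 3.19 in MS-5 only, against 28.8% ± 1.38 in co-culture, and that of P4ha3 was 5.15% ± 0.890 and 2.17% ± 0.297. The summed TPM of the alpha genes was 27.0%, 37.0% and 26.7% of that of P4hb in MS-5 only, against 43.9%, 38.5% and 60.5% in co-culture. MC2 exceeded MO2 by little on this measure. P4hb transcripts were in excess of alpha transcripts in every library.

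Plod1 (chr4:147909753-147936767, minus strand) encodes lysyl hydroxylase 1, which acts on lysines within the triple helix. Its CPM was 190, 162 and 193 in MS-5 only, against 350, 294 and 261 in co-culture. No value of one group fell in the range of the other, and MC1 was again the highest library. The mean rose from 182 ± 17.1 to 301 ± 45.2 CPM (SD, n = 3 each), with a log2 fold change of 0.73 (SE 0.17, 95% interval 0.32 to 1.14, edgeR adjusted p = 0.0985). This value lay just under the threshold of 0.1. Over the 6 fits that leave out 1 library the log2 fold change was 0.59 to 0.82, and Plod1 passed only without MC3.

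Plod2 encodes the telopeptide lysyl hydroxylase. Its CPM was 66.02, 92.3 and 73.8 in MO1, MO2 and MO3 and 139, 116 and 149 in MC1, MC2 and MC3. MO2 and MC3 were the highest of their groups, and the groups did not overlap. The mean rose from 77.4 ± 13.5 to 135 ± 16.6 CPM (SD, n = 3 each), a log2 fold change of 0.80 (SE 0.18, 95% interval 0.38 to 1.22, edgeR adjusted p = 0.0880). In TPM the groups overlapped, at 20.4, 47.3 and 22.5 in MS-5 only, against 43.3, 34.8 and 82.5 in co-culture, since MO2 exceeded MC1 and MC2. Retained-intron transcripts of Plod2 took 9.49% of its TPM in MO2 and 17.0% in MC3, against 1.16% to 2.46% in the other libraries. Plod2 passed in 0 of the 6 edgeR fits that leave out 1 library, with log2 fold changes of 0.72 to 0.94. Neither Plod1 (adjusted p = 0.190) nor Plod2 (adjusted p = 0.703, log2 fold change 0.83, SE 0.42) passed by limma on log2(TPM + 0.5), and P4ha1 did.

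Plod3 (chr5:136987019-136996648, plus strand) encodes lysyl hydroxylase 3, which also adds glucose to galactosylhydroxylysine. Its CPM was 317, 213 and 249 in MS-5 only, against 330, 277 and 225 in co-culture. The groups overlapped and MO2 was the lowest library. Its log2 fold change was 0.09 (SE 0.22, 95% interval -0.43 to 0.62, edgeR adjusted p = 0.942). Plod3 overlaps Znhit1 on the opposite strand, which had 1112 to 1771 estimated counts per library. Within the family, Plod3 took 58.4% ± 4.05 of the summed TPM in MS-5 only, against 47.8% ± 2.94 in co-culture (SD, n = 3 each), Plod1 took 30.0% ± 2.17 and 36.8% ± 1.42, and Plod2 took 11.6% ± 3.43 and 15.4% ± 3.99. Plod3 had the highest TPM of the 3 lysyl hydroxylases in every library, summed over all its transcripts. Retained-intron transcripts took 17.8% to 22.1% of it. The main Plod3 transcript, of 3280 bases, had 98.9, 98.8 and 74.8 TPM in MS-5 only, against 101, 83.3 and 104 in co-culture. That of Plod1, of 3243 bases, had 65.75, 86.4 and 65.2 TPM, against 122, 97.5 and 140. By main transcript, Plod3 was thus above Plod1 in MS-5 only and below it in co-culture.

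Lox encodes lysyl oxidase (chr18:52516067-52529867, minus strand). Its CPM was 752, 1008 and 1120 in MO1, MO2 and MO3 and 1167, 1290 and 1152 in co-culture. MC3 exceeded MO3 by little, and MO1 was well below the other 5 libraries. The log2 fold change was 0.33 (SE 0.23, 95% interval -0.22 to 0.87, edgeR adjusted p = 0.624), and 0.20 to 0.45 with 1 library left out, the lowest without MO1. In TPM the groups overlapped, at 176, 367 and 256 in MS-5 only, against 275, 289 and 422 in co-culture. Loxl2 (chr14:69609068-69695834, plus strand) encodes lysyl oxidase-like 2, which acts on type IV collagen of basement membranes. It had only 7, 20 and 9 counts in MO1, MO2 and MO3 and 23, 18 and 23 in MC1, MC2 and MC3, or 0.28, 0.64 and 0.41 CPM against 0.70, 0.75 and 0.67. Its log2 fold change was 0.66 (SE 0.44, 95% interval -0.39 to 1.72, edgeR adjusted p = 0.599; 0.45 without MO1 and 1.03 without MO2), and at these counts a change of the size seen in P4ha1 was within the interval. Of all members, 6 of 9 had every co-culture CPM above every MS-5 only CPM, against 11.6% of all genes tested.

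**Figure D2:**
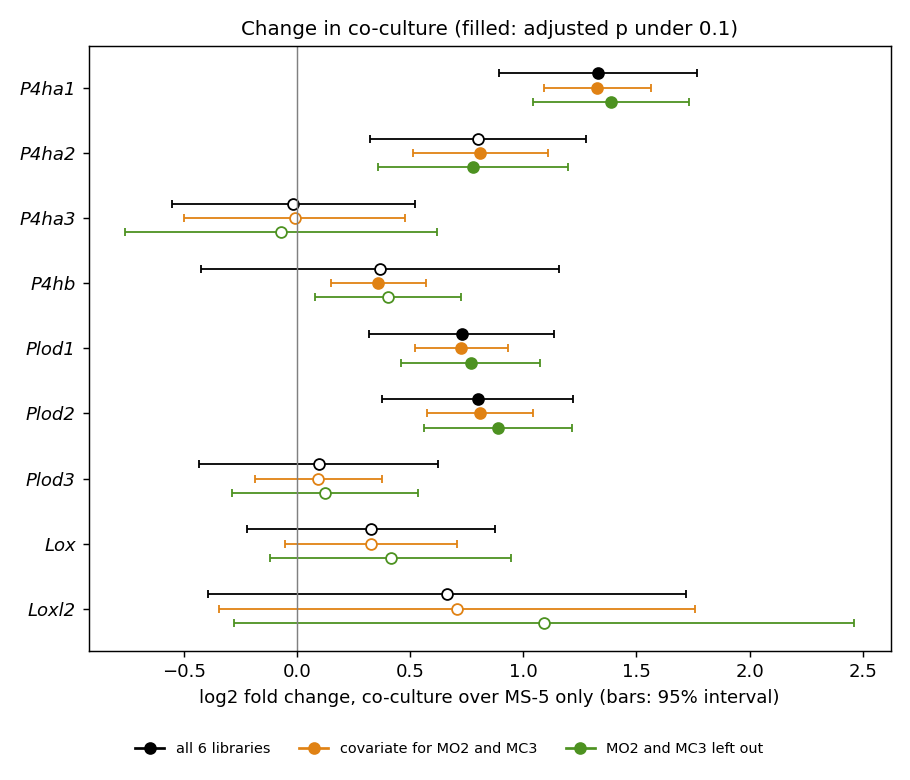
Log2 fold change of each gene, co-culture over MS-5 only, with its 95% interval, by edgeR on all 6 libraries (black), with a covariate for MO2 and MC3 (orange) and with MO2 and MC3 left out (green). Filled points have an adjusted p under 0.1. P4ha1 is filled in all 3 fits, P4ha2 in the latter pair only, and the interval of P4ha3 covers 0 in each.

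The changes were computed again within the libraries that stood apart and within the others. For P4ha1, MC3 over MO2 was 2.37-fold and the mean of MC1 and MC2 over that of MO1 and MO3 was 2.58-fold. For Plod1 the values were 1.60-fold and 1.68-fold, for Plod2 they were 1.61-fold and 1.82-fold, and for P4ha2 they were 1.88-fold and 1.69-fold. These 4 genes were thus higher in co-culture on both sides by similar factors. P4hb was 1.24-fold and 1.30-fold higher, and Lox 1.14-fold and 1.31-fold. Plod3 was near 1 on both sides (1.05 and 1.07), and P4ha3 differed in direction (1.11 and 0.935). Loxl2 was 1.05-fold and 2.11-fold, on few counts.

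With a covariate for MO2 and MC3, 5 members passed: P4ha1 (adjusted p = 0.00729), Plod1 and Plod2 (0.0110 each), P4ha2 (0.0151) and P4hb (0.0360), all by edgeR and all higher. In that fit 13.9% of all genes tested were called higher, and 45.9% of the calls were higher, against 84.8% without the covariate. With MO2 and MC3 left out, 4 members passed by edgeR, P4ha1, Plod1 and Plod2 (adjusted p = 0.0770 each) and P4ha2 (0.0792), where 8.33% of all genes tested were called higher. For the members that passed, the fold changes moved little between these fits and the intervals narrowed, while Loxl2 moved from 0.66 to 1.09 without MO2 and MC3. The libraries MO2 and MC3 were seen to stand apart in the data, and no label describes them as a batch.

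The summed leukocyte markers were several times higher in MC2 than in MC1 and MC3. Of the 12 markers, 8 had their highest CPM in MC2, Cd33 and Cd34 in MO2, and Cd53 and Cd74 in MO3. Of the 6 endothelial and epithelial markers, Pecam1, Epcam and Cdh1 were highest in MC2, and Cdh5, Kdr and Krt18 in MO1. For the 3 members that rose, the excess of MC2 over the MS-5 only mean was below the mean excess of MC1 and MC3: the ratio of the excess in MC2 to the mean excess in MC1 and MC3 was 0.921 for P4ha1, 0.905 for Plod1 and 0.586 for Plod2. For P4ha2 it was 0.758. For P4hb and Lox it was 1.54 and 1.65, for Loxl2 1.254, for Plod3 0.980 and for P4ha3 -2.37. The low ratios of P4ha1, Plod1 and P4ha2 rest on MC1. Against MC3 alone, MC2 was higher for P4ha1 (521 against 465 CPM), Plod1 (294 against 261) and P4ha2 (133 against 126). MC2 was also higher for P4hb, Plod3, Lox and Loxl2, and lower for Plod2 (116 against 149) and P4ha3 (8.97 against 11.7). The part of other cells in these values was not tested.

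The 2 coding transcripts of P4hb differed in their pattern. The 770-base transcript, of 4 exons, had 13.5, 7.45 and 6.96 TPM in MS-5 only, against 59.0, 107 and 66.1 TPM in MC1, MC2 and MC3. Within co-culture it was highest in MC2, as was the sum of the leukocyte markers, but within MS-5 only it was highest in MO1, where that sum was lowest. Most of that sum in MS-5 only was Cd74, with 9.36, 29.2 and 28.4 of 15.2, 44.8 and 40.7 TPM. Cd74 was not higher in co-culture (log2 fold change -0.21). The order of the sum within MS-5 only is thus mainly the order of Cd74. The part of other cells in the 770-base transcript was not tested. The 2861-base transcript, which holds all 11 exons, had 512, 485 and 493 TPM in MS-5 only, against 712, 564 and 594 TPM in co-culture, with its highest value in MC1. Without the 770-base transcript the log2 fold change of P4hb was 0.33 (edgeR adjusted p = 0.774), close to the 0.37 with it. This transcript was singled out after its values were seen.

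**Figure D3:**
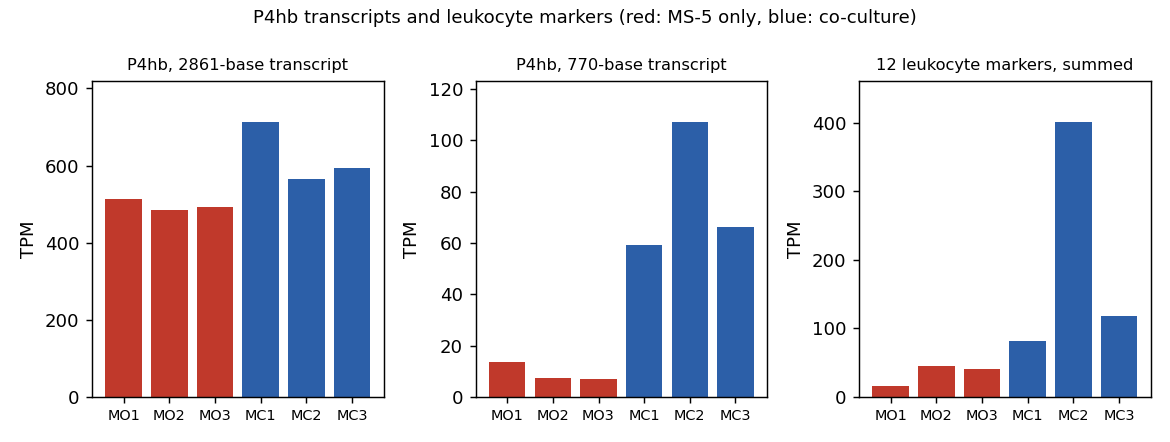
TPM per library of the 2861-base and the 770-base transcript of P4hb and of the 12 leukocyte markers summed, on axes that start at 0, with MS-5 only in red and co-culture in blue. The long transcript is highest in MC1, and the short transcript and the summed leukocyte markers are highest in MC2. Among the MS-5 only libraries the short transcript is highest in MO1, where the summed markers, in MS-5 only mostly Cd74, are lowest.

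The splice forms of P4ha1 and Plod2 did not differ between the groups by more than the spread between libraries. For P4ha1, the transcript with the upstream exon took 20.6%, 25.8% and 22.4% of the TPM in MS-5 only, against 21.2%, 22.2% and 22.1% in co-culture, a difference of -1.09 percentage points (exact two-sided permutation p = 0.7). The upstream form had 16.2, 28.7 and 18.9 TPM in MS-5 only, against 49.5, 40.6 and 59.7 in co-culture, and the downstream form 62.4, 82.4 and 65.4 TPM against 183, 142 and 210 TPM. Both forms were higher in co-culture in each library. For Plod2, the form with the 63-base exon took 86.4%, 94.4% and 95.4% in MS-5 only, against 91.0%, 95.8% and 93.9% in co-culture. The long form was the main form in every library, and the means of 92.0% ± 4.92 and 93.6% ± 2.46 (SD, n = 3 each) differed by 1.53 percentage points (exact permutation p = 0.7, two-sided). MO1 had the lowest share, and without it the difference was -1.29 percentage points.

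For P4ha2, the transcript with the downstream exon took 19.9%, 27.9% and 20.8% of the TPM of the coding transcripts with either exon in MS-5 only, against 33.1%, 29.6% and 34.5% in co-culture. The groups did not overlap, although MC2 exceeded MO2 by little. The means were 22.8% ± 4.39 and 32.4% ± 2.56 (SD, n = 3 each), a difference of 9.54 percentage points (exact two-sided permutation p = 0.1, the smallest that 3 against 3 libraries can give). The downstream form had 9.72, 12.3 and 8.47 TPM in MS-5 only, against 29.0, 19.2 and 28.3 TPM in co-culture, and the upstream form 39.2, 31.8 and 32.3 TPM against 58.8, 45.7 and 53.6 TPM. Both forms were higher in co-culture without overlap. The upstream form sums 2 transcripts. The larger, of 2263 bases, overlapped between the groups (38.95, 31.3 and 27.8 TPM against 47.55, 32.6 and 46.2). The smaller, of 2094 bases, did not (0.240, 0.472 and 4.52 TPM against 11.2, 13.1 and 7.44). The comparison of the P4ha2 forms was added after the transcript values were seen, and the design cannot reach a p under 0.05.

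**Figure D4:**
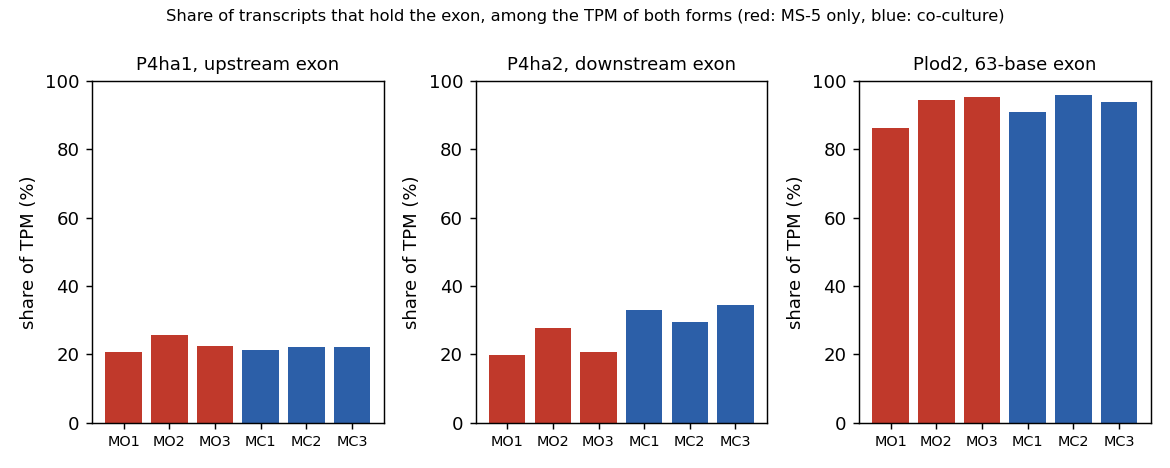
Share (%) of the TPM in transcripts that hold the upstream exon of P4ha1, the downstream exon of P4ha2 or the 63-base exon of Plod2, among the coding transcripts of both forms, per library, on axes from 0 to 100, with MS-5 only in red and co-culture in blue. The shares of P4ha1 and Plod2 overlap between the groups, and those of P4ha2 lie between 19.9% and 27.9% in MS-5 only and between 29.6% and 34.5% in co-culture.

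The other genes of the collagen pathway were read from the same fit. Of 49 genes in 5 lists, 42 were tested, 2 rose (Ero1l and Loxl1) and 0 fell by edgeR (0 lower at an unadjusted p under 0.05), with a median log2 fold change of 0.07, against 3 of 9 members and a median of 0.66. In this fit 3.71% of all genes tested were called higher. Loxl1 encodes a lysyl oxidase that acts on elastin. It had 57.0, 75.7 and 78.4 CPM in MS-5 only, against 108, 125 and 112 CPM in co-culture, without overlap, with a log2 fold change of 0.71 (SE 0.16, edgeR adjusted p = 0.0933). Ero1l encodes the oxidase that recharges protein disulphide isomerase, and is also a known hypoxia-inducible gene. It had 185, 208 and 209 CPM in MS-5 only, against 408, 331 and 334 CPM in co-culture, without overlap, with a log2 fold change of 0.83 (SE 0.16, edgeR adjusted p = 0.0742).

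In the list of chaperones and other modifying enzymes of procollagen, 0 of 13 tested genes passed by edgeR, 0 had an unadjusted p under 0.05 and the median log2 fold change was 0.02. Their log2 fold changes ran from -0.36 for Fkbp10, a collagen chaperone of the FK506-binding family, and -0.20 for Crtap, a partner of prolyl 3-hydroxylase, to 0.62 for P3h3 and 0.77 for P3h2, both of the prolyl 3-hydroxylase family. Among other lysyl oxidases and the proteins of procollagen processing and fibril assembly, Loxl1 passed of 9 tested, the median log2 fold change was 0.13, and the lowest values were -0.43 for Pcolce2, an enhancer of the C-propeptide protease, and -0.08 for Sparc, a collagen-binding matrix protein. Of the fibrillar collagen chains themselves, 0 of 7 passed by edgeR, 0 had an unadjusted p under 0.05 and the median log2 fold change was 0.25. Their log2 fold changes were -0.29 for Col5a2 and -0.09 for Col1a2 at the low end and 0.27 for Col5a3 and 0.33 for Col1a1 at the high end. Col1a1, the main chain of type I collagen, was 2870, 1568 and 2181 CPM in MS-5 only, against 3799, 2752 and 1767 CPM in co-culture, with overlap.

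Of 8 protein disulphide isomerases and their oxidases, Ero1l passed, the median log2 fold change was 0.06, and the lowest values were -0.16 for Txndc5 and -0.04 for Pdia4, both isomerases of the same family as P4hb. Of 5 genes of copper and ascorbate supply, the cofactors of the oxidases and hydroxylases, 0 passed by edgeR, 0 had an unadjusted p under 0.05 and the median log2 fold change was -0.10. They ran from -0.41 for Slc23a1 and -0.17 for Slc23a2, the ascorbate transporters, to 0.03 for Atox1, a copper chaperone, and 0.29 for Atp7a, a copper pump that loads secreted enzymes.

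These counts changed with the covariate for MO2 and MC3, under which edgeR called 9 of the 42 tested pathway genes. Of these, 6 were higher, where 13.9% of all genes tested were called higher. They were Ero1l, Loxl1, P3h3 (log2 fold change 0.66), P3h1 (0.27), Bmp1 (0.56), the protease that removes the C-propeptide, and the collagen chain gene Col5a3 (0.31). The other 3, Fkbp10 (-0.36), Pcolce2 (-0.43) and Col5a2 (-0.29), were lower, where 16.4% of all genes tested were called lower. With MO2 and MC3 left out, Ero1l, Loxl1, P3h3 and Bmp1 passed, all higher, where 8.33% of all genes tested were called higher.

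**Figure D5:**
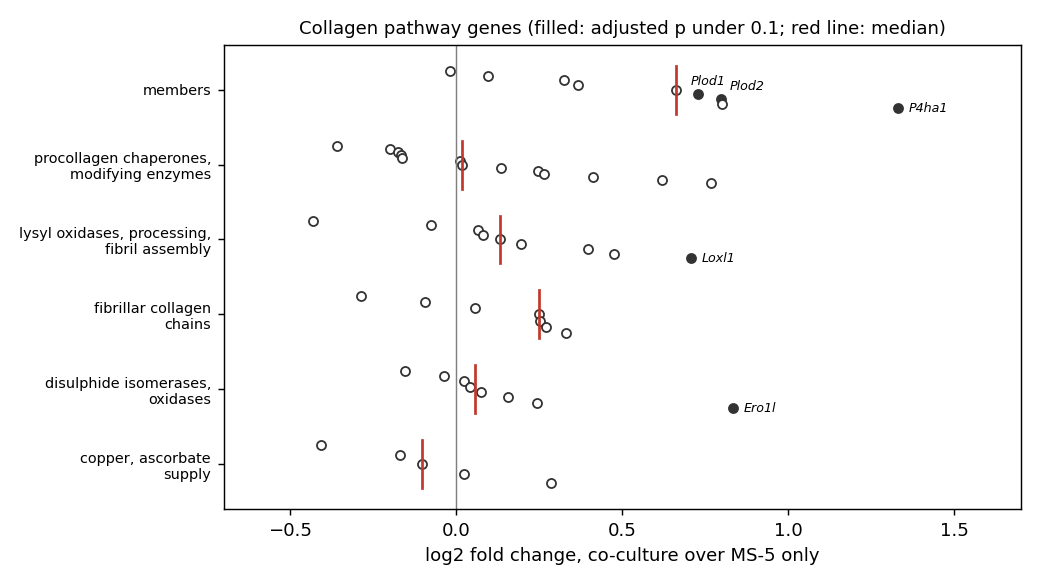
Log2 fold change, co-culture over MS-5 only, of each tested gene in the 9 members and 5 collagen pathway lists, with filled points for an adjusted p under 0.1 by edgeR and a red line at each list's median. The filled points are P4ha1, Plod1, Plod2, Loxl1 and Ero1l, all to the right of 0.

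The hypoxia-inducible genes listed for comparison, chosen for their known regulation, rose in 8 of 11 tested cases, with a median log2 fold change of 1.10. The log2 fold changes of those that passed were 2.68 for Bnip3, a mitophagy receptor, 2.19 for Pdk1, which inhibits pyruvate dehydrogenase, 2.14 for Ankrd37, 1.42 for Slc2a1, the glucose transporter GLUT1, 1.40 for Mxi1, 1.10 for Egln1, which hydroxylates hypoxia-inducible factor, 1.08 for Ndrg1 and 0.83 for Ero1l. Vegfa (1.10), Kdm3a (0.93) and Car9 (-0.42) did not pass by edgeR. The log2 fold change of P4ha1, 1.33, lay within the range of the called genes, and those of Plod1 and Plod2, 0.73 and 0.80, lay below its lowest value. This list was already known to be higher in these libraries and is not independent evidence for the members.

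The genes whose pattern over the 6 libraries was most like that of each called member were found by the root mean square distance between log2 CPM values centred on their mean, among 8882 protein-coding genes with a mean of at least 10 CPM. For P4ha1 they were Slc2a1 (distance 0.0651 log2 units), Gys1 (0.104) and Mxi1 (0.115). For Plod1 they were Wnt4 (0.0441), Sdc4 (0.0620) and Hmox1 (0.0694), and for Plod2 they were Nfatc4 (0.0722), Dtx3l (0.0759) and Creb5 (0.0799). Slc2a1, the nearest gene to P4ha1, had 43.9, 38.3 and 45.0 CPM in MS-5 only, against 134, 113 and 92.2 CPM in co-culture, with the same order of libraries within co-culture as P4ha1. Among the members, the closest pair was P4ha2 and Plod1, at a distance of 0.115.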

How the data were processed

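RNA-seq libraries of MS-5 cells grown alone (3 libraries) or with SKM-1 cells (3 libraries) were grouped and numbered by the sample labels. The authors made estimated counts with Kallisto 0.43.0 on a mouse transcript index and deposited them per transcript without normalization between libraries, so that depth differs between libraries. The TPM values, also deposited by the authors, correct those counts for effective length and sum to 1 total per library. The submitters' processing notes also name FastQC 0.11.7, sleuth 0.30.0 and the build mm10. Replicates had not been pooled. The transcript lengths and effective lengths in bases, deposited beside them, served only the length correction and the naming of transcripts.

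Of 118489 transcripts, 116728 matched GENCODE M21 (GRCm38) and were summed per gene. The other 1761, with between 0.476% and 0.562% of a library's estimated counts, were left out. Sums were rounded to whole numbers, filtered with edgeR's filterByExpr (13221 of 35968 genes kept, all 9 members among them) and normalised by TMM. Under R 4.3.3, edgeR 4.0.16 tested the groups by quasi-likelihood, with p-values adjusted by Benjamini-Hochberg over all genes tested and read at 0.1. The standard error of a log2 fold change was taken as its size over the root of its F value, and intervals are 95%. Exact permutation tests of splice shares are two-sided and cannot go below 0.1. The test was tried on simulated data, drawn for 13029 genes with 200 changed by a log2 fold change of 2, of which it recovered 74% with 13 false calls. That change is larger than the change of any member (at most 1.33), and the recovery of smaller changes was not tried. Depth was between 23978881 and 35694987 estimated counts per library, which leaves a large counting error for Loxl2 only among the members.

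The members and lists were chosen with earlier results of these data known. The text names all members, every listed gene past the threshold, otherwise the 2 lowest and 2 highest of a list, and the 3 genes most like each called member. The alternatives were other scalings (DESeq2's size factors, or library size alone), the Wald test of DESeq2 1.42.0, limma 3.58.1 on log2(TPM + 0.5) and with 0.1 or 1 in place of 0.5, an offset for effective length, a minimum of 5 counts in 3 libraries or none at all, a block for the replicate number, MO2 and MC3 given a covariate or left out, the omission of each library in turn, and a threshold of 0.05. Alternatives at the level of transcripts, without retained-intron transcripts and without the 770-base transcript of P4hb, were added after the values were seen. Sleuth and the other experiments of the study were not used here.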

Additional observations from a re-analysis of the deposited data

How the results depend on the processing

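With 3 libraries per group the calls lay close to the threshold. Under a threshold of 0.05, edgeR called 2 genes, 0 members and 0 other collagen pathway genes, although 4 members and 14.3% of all genes had an unadjusted p under 0.05. Over the 20 alternatives that gave each gene a value, P4ha1 passed in 16, Plod1 in 8, Plod2 in 8, P4ha2 in 5 and P4hb in 1. None of these 5 genes, nor Lox or Loxl2, changed direction in any of them. Leaving out 1 library at a time gave 0 to 549 genes, 0 to 2 members and 0 to 1 other pathway genes past the threshold by edgeR, with 4 members at an unadjusted p under 0.05 in each of these fits, as were 10.1% to 20.8% of all genes tested (20.8% without MO2). Without MO1, without MO2 or without MO3 no gene passed. Without MC1 or MC2, 283 and 281 genes, 1 member and 0 other pathway genes passed. The log2 fold change of P4ha3 then ran from -0.21 to 0.14, that of Plod3 from -0.0600 to 0.28, and the difference in the Plod2 splice share from -1.29 to 3.19 percentage points. P4ha3 also turned to 0.0069 without retained-intron transcripts.

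The replicate block gave 0 members and 0 other pathway genes by edgeR, with 4 members (and 9.56% of all genes) at an unadjusted p under 0.05 and an adjusted p of 0.104 for P4ha1. It called 444 genes in all. The numbers do not pair the samples: the deviations of MO1 and MC1 from their group means correlated by 0.53, those of MO2 and MC2 by -0.29 and those of MO3 and MC3 by -0.52, while MO2 and MC3 correlated by 0.73.

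The covariate for MO2 and MC3 gave 3999 genes, 5 members and 9 other pathway genes (6 higher and 3 lower), and leaving both out gave 1702 genes, 4 members and 4 other pathway genes. DESeq2's Wald test gave 1268 genes and 4 members, with 71.8% of its calls higher. Limma on TPM gave 1 member, P4ha1, and 0 other pathway genes with each pseudocount (4 members at an unadjusted p under 0.05, with P4hb in place of Plod2, and 9.54% of all genes at 0.5), with 356 genes at 0.5 and 224 at 1 and about 95.2% of calls higher at 0.5. Library size, the effective length offset, the filter of 5 counts and no filter each gave 1 other pathway gene, Ero1l. The median of all genes moved by less than 0.1 in all of these. The cause of these differences was not tested.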
